A study of Mus musculus with 8 samples.

Results

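The 10 genes described here carry glucose into the cell and break it down to pyruvate and lactate. They are the transporter gene Slc2a1, the hexokinases Hk1 and Hk2, the phosphofructokinase Pfkl, its regulator Pfkfb3, and the lower pathway genes Pgk1, Eno1, Eno1b, Pkm and Ldha. Eno1b, a near copy of Eno1, was included because its value jumps between libraries, so the pair was selected on its own FPKM values in these libraries, and both rows are given as a description with no test. The other 8 genes were named for their place in the pathway, with earlier results of these data known. All 10 were found in both expression tables, among 18645 rows for stellate cells and 17408 rows for macrophages.

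The libraries came from 2 mouse cell cultures exposed to auranofin, a gold compound used against rheumatoid arthritis. Activated hepatic stellate cells (AHSC), the collagen-producing cells of the injured liver, were isolated from C57BL/6 livers on a density gradient, activated on plastic, and given 0.03 µM auranofin for 12 h or left without it. Bone marrow-derived macrophages (BMDM) from 8-week-old C57BL/6 mice were grown for 7 days with M-CSF. All 4 BMDM cultures received 100 ng/mL LPS, a bacterial priming signal, for 4 h and 1 mM ATP, and 2 of them also received auranofin for 1 h, at 0.1 µM by the labels and 0.3 µM by the study's figure legend. Each of the 4 groups had 2 libraries. The controls carry the label untreated, while the study's text speaks of vehicle. Nothing states that the 2 libraries of a group came from separate cultures or animals, so p-values measure only the spread between these libraries.

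Glucose enters through facilitative transporters and is trapped by hexokinase. Phosphofructokinase sets the pace of the middle of the pathway and is stimulated by the product of PFKFB enzymes. Phosphoglycerate kinase and pyruvate kinase yield ATP, enolase makes the substrate of pyruvate kinase, and lactate dehydrogenase turns pyruvate into lactate and regenerates NAD+. Many of these genes are known targets of hypoxia-inducible factor 1 (HIF-1), and macrophages primed with LPS are known for a high glycolytic rate.

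Values are FPKM, the fragments of a gene scaled to the length of its transcript and to the size of the library, as deposited. The depth behind them, estimated from the 1-fragment steps of low values, was between 27500000 and 39400000 fragments per library. In the AHSC libraries, the 10 stellate markers summed to between 3055 and 3673 FPKM. The 11 macrophage markers summed to between 6563 and 6774 FPKM in the same libraries, with 10 of the 11 at a mean of at least 1 FPKM and Lyz2 alone between 5379 and 5554. In BMDM the macrophage markers summed to between 7054 and 7962 FPKM, with Lyz2 between 3625 and 4278. Single markers differed both ways in their AHSC and BMDM control means. Cd68 was at 657.5 and 1800 FPKM and Cd14 at 46.25 and 470.7, whereas Csf1r was at 190.9 and 165.3 and Mrc1 at 87.61 and 56.55. The BMDM stellate markers summed to between 5.50 and 10.6 FPKM. The labelled stellate cultures thus held RNA with strong macrophage markers, and in such bulk samples fewer cells of a type and less RNA per cell cannot be told apart. The 6 endothelial markers summed to between 164 and 178 FPKM in AHSC and to between 6.36 and 13.5 FPKM in BMDM, and hepatocyte markers to between 0.446 and 1.76 FPKM in AHSC. With auranofin, the AHSC stellate sum was lower (3501 and 3673 against 3055 and 3184 FPKM). The macrophage sum, largely Lyz2, was lower as well (6713 and 6774 against 6563 and 6609 FPKM), while the endothelial sums overlapped. Of 10 stellate markers tested, 6 were lower and 1 higher without overlap between groups. The 10 macrophage markers tested gave 4 and 1, where 50.1% of all genes tested had groups that did not overlap. By adjusted p in limma, 4 of the 26 AHSC markers tested passed the test, where 2.33% of all genes tested did. By that adjusted p in limma, Acta2 (0.00719), Mrc1 (0.0395) and Stab2 (0.0169) were lower and Clec4f (0.0395) was higher. Acta2, the smooth muscle actin of activated stellate cells, was at 956 and 965 FPKM in the controls and 743 and 737 FPKM with auranofin. The part of cell composition in the differences below was not tested.

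Pkm, pyruvate kinase, was the most abundant member in both control groups, at 861 ± 10.6 FPKM in AHSC and 366 ± 2.92 FPKM in BMDM (SD, n = 2). It lies at chr9:59656576-59679372 in GRCm38, the assembly behind mm10, and is listed with 2 transcripts. Below it in AHSC came Eno1 at 481, Ldha at 383 and Pgk1 at 237.5 FPKM. The genes of the upper pathway were lower, with Slc2a1 at 32.6, Hk1 at 28.8, Pfkl at 26.3, Pfkfb3 at 17.3 and Hk2 at 15.8 FPKM. Among neighbours in this order, the control ranges of Hk2 and Eno1b overlapped and the others were apart. The wide Eno1b range also took in that of Pfkfb3. In BMDM the order was Pkm, Ldha, Pgk1, Eno1, Pfkfb3, Hk1, Slc2a1, Hk2, Pfkl and Eno1b, and no neighbours overlapped. Pfkfb3 stood out in its place, at 106.7 FPKM in control BMDM against 17.3 FPKM in control AHSC. The tables were normalized separately and the cultures differ in treatment, so levels in AHSC and BMDM are set side by side and were not tested against each other. The plot of levels by library shows all 10 genes.

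**Figure D1:**
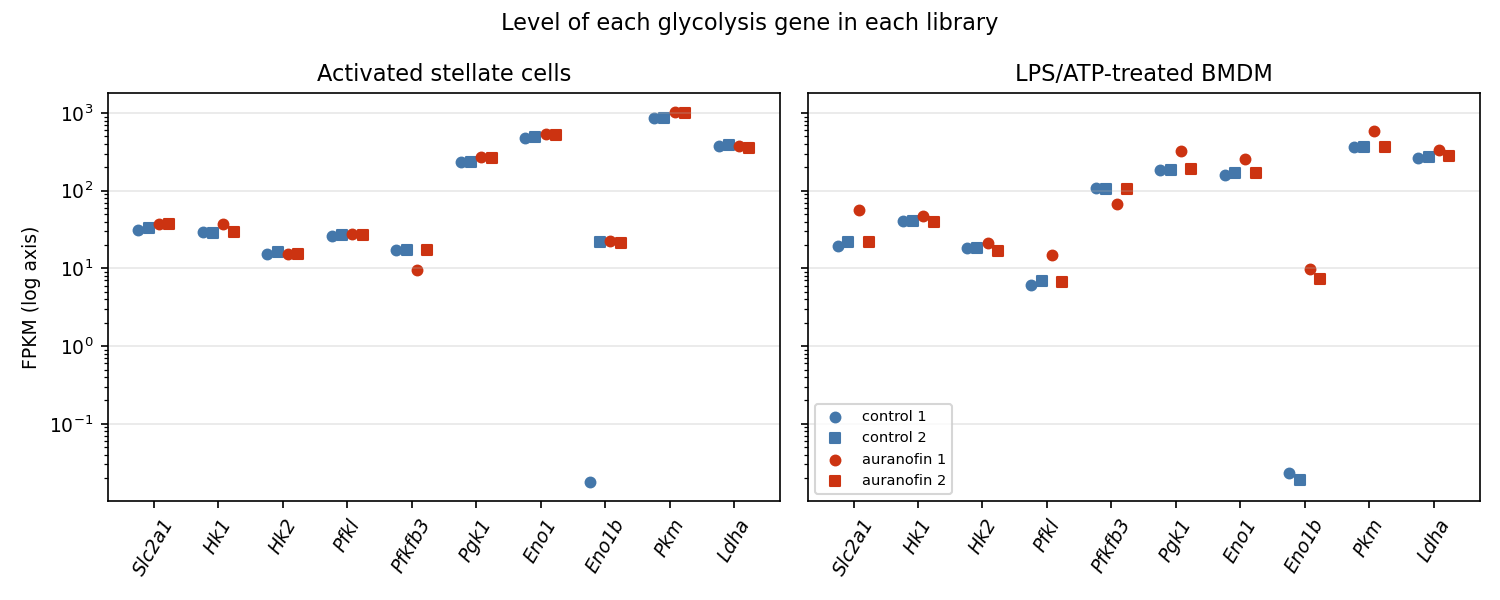
Level of each member in each library, in FPKM on a log axis, with AHSC on the left and LPS/ATP-treated BMDM on the right; circles are replicate 1, squares replicate 2, blue control and red auranofin. Most genes sit in tight clusters of 4 points in AHSC, the BMDM library auranofin 1 stands off from the other 3 for most genes, and Eno1b falls to about 0.02 FPKM in 3 control libraries.

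Within their families, the members were not always the leading isozyme. The AHSC shares are those of the whole culture, with its strong macrophage markers, and not of stellate cells alone. Hk3 held between 74.9% and 78.2% of the summed hexokinase FPKM in AHSC and between 80.8% and 86.8% in BMDM, so that Hk1 and Hk2 were the minor forms. Pfkl was the leading phosphofructokinase in AHSC, with between 45.4% and 47.7%, whereas Pfkp held between 82.4% and 90.4% in BMDM. Slc2a1 held between 68.5% and 76.1% of the summed FPKM of Slc2a1, Slc2a3 and Slc2a6 in AHSC. In BMDM, Slc2a6 held 93.4% and 92.9% of that sum in the controls, and Slc2a1 held 6.38% and 6.99%. Ldha made up between 86.4% and 87.7% of the summed FPKM of Ldha and Ldhb in AHSC and between 98.7% and 99.0% in BMDM. Pfkfb3 made up between 94.0% and 97.7% of the PFKFB sum in BMDM.

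The promoters were read to see what sequence the members share. RefSeq start sites on GRCm38.p6 gave 15 windows of 250 bases before a start for 9 members, some of which overlap. The core of the HIF binding site was searched as ACGTG or GCGTG on both strands. It was present in 13 of the 15 windows and in at least 1 window of each of the 9 genes, and in 38.6% of 32851 windows of the same length over all genes. The core of the antioxidant response element, bound by NRF2 and searched as TGACNNNGC on both strands, was present in 1 window, the second of Hk1, and in 10.2% of all windows. These matches are descriptions of the letters and not of binding. Below are windows of a transporter, a regulator, a lower pathway gene and the enolase parent gene, each 5′ to 3′ on the strand of the gene and ending at the base before the start, with the HIF cores in capitals. Slc2a1 is read from chr4:119108495-119108744 (plus strand), Pfkfb3 from chr2:11553930-11554179 (minus strand), Pgk1 from chrX:106186850-106187099 (plus strand) and Eno1 from chr4:150236458-150236707 (plus strand).
Slc2a1: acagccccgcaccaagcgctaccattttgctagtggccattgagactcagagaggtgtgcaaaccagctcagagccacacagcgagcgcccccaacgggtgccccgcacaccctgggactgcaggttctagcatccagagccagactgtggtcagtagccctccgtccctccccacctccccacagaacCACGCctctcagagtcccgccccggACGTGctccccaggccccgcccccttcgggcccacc
Pfkfb3: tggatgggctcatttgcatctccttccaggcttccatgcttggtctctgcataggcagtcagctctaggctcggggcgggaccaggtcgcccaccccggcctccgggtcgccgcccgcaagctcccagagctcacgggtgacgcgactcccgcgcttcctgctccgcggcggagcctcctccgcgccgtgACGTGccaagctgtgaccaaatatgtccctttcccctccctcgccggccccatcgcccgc
Pgk1: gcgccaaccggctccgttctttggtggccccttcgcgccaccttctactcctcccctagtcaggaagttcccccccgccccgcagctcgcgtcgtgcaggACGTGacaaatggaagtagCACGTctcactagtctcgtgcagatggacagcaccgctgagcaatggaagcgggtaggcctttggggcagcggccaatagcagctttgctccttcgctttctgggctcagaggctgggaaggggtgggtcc
Eno1: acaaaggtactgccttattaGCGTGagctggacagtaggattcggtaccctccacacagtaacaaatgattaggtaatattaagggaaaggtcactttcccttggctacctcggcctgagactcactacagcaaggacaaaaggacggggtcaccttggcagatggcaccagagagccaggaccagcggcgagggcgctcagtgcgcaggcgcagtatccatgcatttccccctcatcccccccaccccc
The Pgk1 window holds 2 cores, 150 and 131 bases before the start, and the Slc2a1 window holds 2, 61 and 36 bases before it. The Pfkfb3 window shown holds 1 core 60 bases before the start, and the Eno1 window 1 core 230 bases before it.

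In AHSC, auranofin was compared with no auranofin to ask how transcript levels in these cultures differ with the drug. Pkm rose by 18.4%, and 7 of the 8 tested members did not pass the test. Pkm was at 853 and 868 FPKM in the controls and at 1031 and 1007 FPKM with auranofin. Both auranofin libraries were above both controls, with a log2 difference of 0.24 ± 0.03 (SE, n = 2 per group; limma, Benjamini-Hochberg adjusted p = 0.0269). Leaving out auranofin 1 or auranofin 2 ended this call, at adjusted p = 0.121 and 0.0695 from limma. Over all 12149 genes tested, 2.33% had an adjusted p under 0.05, against 1 of 8 members. None of the 8 passed 1.5-fold with an unadjusted p under 0.05, as 0.576% of all genes did.

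Slc2a1, the main glucose transporter of many cells, was at 31.7 and 33.5 FPKM in AHSC controls and at 37.2 and 37.5 FPKM with auranofin. Its groups did not overlap, and its log2 difference of 0.19 ± 0.04 (SE) had an adjusted p of 0.0877 in limma. Pgk1, which makes the first ATP of the pathway, was at 237.9 and 237.0 FPKM in the controls and 271 and 263.5 FPKM with auranofin. Here too the groups were apart, with a log2 difference of 0.17 ± 0.03 (SE) and an adjusted p of 0.0649 in limma. Ldha, the last step, pointed the other way, at 376.5 and 390 FPKM in the controls and 376.0 and 359 FPKM with auranofin. The gap between its groups was narrow, with a log2 difference of -0.06 ± 0.04 (SE) and an adjusted p of 0.473 in limma.

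Of the remaining AHSC members, Hk2, Pfkl and Hk1 lay between 0.975 and 1.16 times their control means. Hk1, the housekeeping hexokinase, was at 29.4 and 28.2 FPKM in the controls and 37.1 and 29.7 FPKM with auranofin, so that most of its difference came from 1 library. Pfkfb3 was at 17.2 and 17.4 FPKM in the controls and at 9.67 and 17.4 FPKM with auranofin. Only auranofin 1 was low. By that same low value, the Pfkfb3 share of the PFKFB sum was 40.3% in auranofin 1, against between 53.9% and 54.6% in the other 3. Without auranofin 2, the log2 difference was 0.36 for Hk1, -0.78 for Pfkfb3 and 0.26 for Pkm. Across the 8 members, 5 were higher and 1 lower with no overlap between groups, where 50.1% of all genes tested had groups that did not overlap. The median log2 difference of the 8 was 0.12, against 0.005 over all genes tested, and was 0.046 without auranofin 1.

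**Figure D2:**
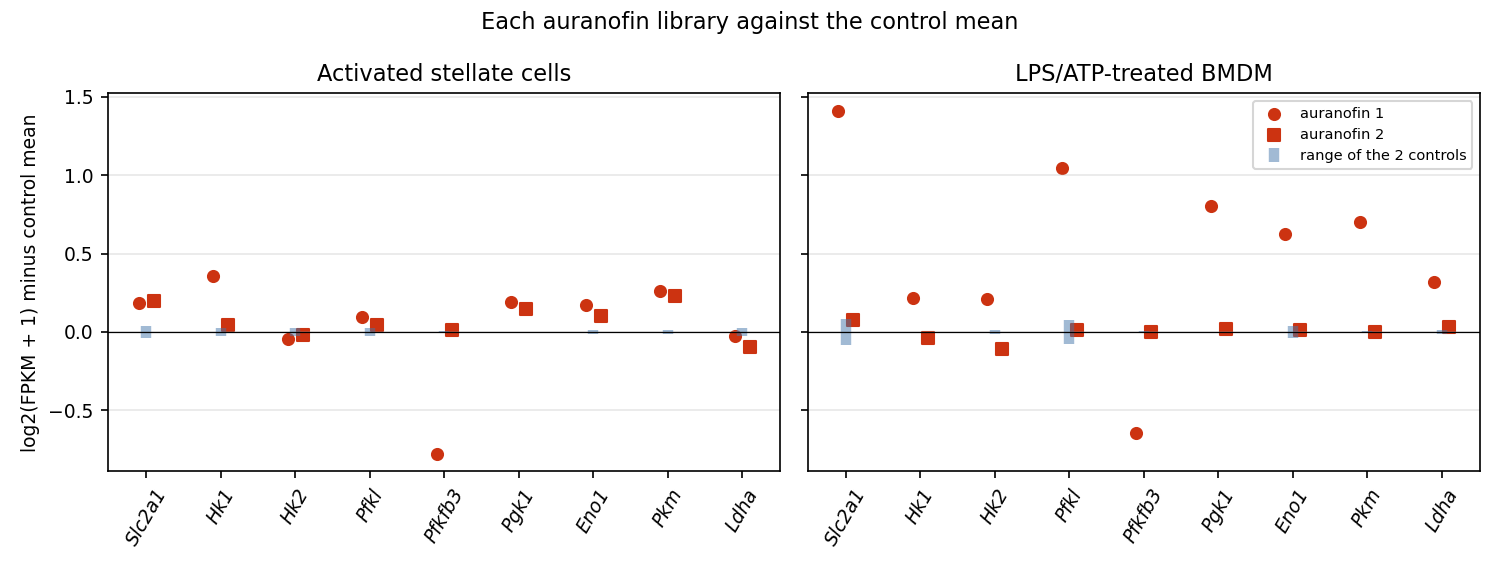
Difference of each auranofin library from the control mean, as log2(FPKM + 1), for the members other than Eno1b; circles are auranofin 1, squares auranofin 2, and the blue bars span the 2 controls. In AHSC both points lie close together for most genes, with Pfkfb3 at -0.78 in auranofin 1 only, while in BMDM auranofin 1 reaches 1.41 for Slc2a1 and auranofin 2 stays between -0.11 and 0.08.

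In LPS/ATP-treated BMDM, auranofin was compared with LPS and ATP alone. None of the 8 members passed the test in limma by adjusted p, and none had an unadjusted p under 0.05. Of the 9232 genes tested, 0.0108% (1 gene) had an adjusted p under 0.05, 49 had an unadjusted p under 0.05 and 0.152% also passed 1.5-fold. The 2 auranofin libraries differed from each other in these genes. Slc2a1 was at 19.6 and 22.2 FPKM in the controls, 57.1 FPKM in auranofin 1 and 22.03 FPKM in auranofin 2. Auranofin 1 was thus at 2.73 times the control mean, and auranofin 2 lay within the control range. Pfkl, the liver-type phosphofructokinase, was at 6.20 and 6.99 FPKM in the controls, 14.7 FPKM in auranofin 1 and 6.65 FPKM in auranofin 2.

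The lower pathway genes had the same layout. Pgk1 was at 185.8 and 185.4 FPKM in the control BMDM, 324.5 FPKM in auranofin 1 and 187.9 FPKM in auranofin 2. Pkm was at 364 and 368 FPKM in the controls, 596 FPKM in auranofin 1 and 367 FPKM in auranofin 2. Ldha was at 267 and 273 FPKM in the controls, 337 FPKM in auranofin 1 and 276 FPKM in auranofin 2. In each case auranofin 1 was the highest library, at 1.75 times the control mean for Pgk1, 1.63 times for Pkm and 1.25 times for Ldha. Auranofin 2 was between 1.00 and 1.02 times the control mean for the same 3 genes. Hk1 and Hk2 were at 1.17 times the control mean in auranofin 1, and at 0.974 and 0.923 times in auranofin 2. Pfkfb3 was the only member that was lower in auranofin 1, at 68.1 FPKM against 107.0 and 106.3 FPKM in the controls and 106.7 FPKM in auranofin 2.

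Across the 8 members in BMDM, 2 were higher with no overlap (Pgk1 and Ldha) and 6 overlapped, where 38.8% of all genes tested had groups that did not overlap. The median log2 difference was 0.26, against 0.089 over all genes tested. It was 0.0074 without auranofin 1, against 0.0051 over all genes tested, and 0.509 without auranofin 2, against 0.178. In auranofin 1 alone, 4 of the 8 were at least 1.5-fold above the control mean on the log2(FPKM + 1) scale, and 1 at least 1.5-fold below. Over all genes tested, 15.2% and 8.07% were. The corresponding counts in auranofin 2 were 0 and 0, against 0.379% and 0.282% of all genes. The median of all genes tested in auranofin 1 was itself 0.176 above the control mean (log2), and that of the 8 members was 0.509. Auranofin 1 therefore stood apart from the other 3 BMDM libraries across the table, and the median difference of the members rests on it.

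The other genes of the pathway were counted from lists arranged by role. Of 62 genes for uptake, hexokinases, the phosphofructokinase step, lower glycolysis, lactate and pyruvate handling and HIF-1 control, 50 were tested in AHSC and 40 in BMDM. In AHSC, 1 of the 50 rose and none fell, beside 2.33% called over all genes tested. The median log2 difference was 0.024, against 0.005 over all genes. The one that rose was Aldoa, the aldolase of most tissues, at 624 and 653 FPKM in the controls and 785.5 and 767.5 FPKM with auranofin. Both auranofin libraries were above both controls, with a log2 difference of 0.28 ± 0.04 (SE, n = 2 per group; limma, adjusted p = 0.0258). Aldoa lost its call without auranofin 1 (limma, adjusted p = 0.101) and without auranofin 2 (0.0623). Without auranofin 1, the 1 gene called among the 50 was Eno3, a muscle enolase, which was lower (adjusted p = 0.0454), and without auranofin 2 there was none. In BMDM none of the 40 passed by adjusted p in limma, 0 had an unadjusted p under 0.05, and the median was 0.133, against 0.0108% called and a median of 0.089 over all genes tested. In auranofin 1 alone the median of the 40 was 0.248, against 0.176 over all genes tested. In auranofin 2 it was 0.009, against 0.005.

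In BMDM the 2 pathway genes with the lowest unadjusted p among those higher were Mpc2 and Vhl. Mpc2, a subunit of the mitochondrial pyruvate carrier, was at 12.8 and 13.4 FPKM in the controls and 18.9 and 15.5 FPKM with auranofin. Vhl, which marks HIF proteins for destruction, was at 5.15 and 5.42 FPKM in the controls and 6.66 and 6.41 FPKM with auranofin. Both auranofin libraries were above the controls for these genes. Among those lower were Slc2a6, a transporter abundant in these macrophages, and Hk3, the main hexokinase. Slc2a6 was at 286 and 295 FPKM in the controls, 116 FPKM in auranofin 1 and 287 FPKM in auranofin 2. Slc2a1 made up 32.8% of the transporter sum in auranofin 1. Hk3 was at 377 and 367 FPKM in the controls, 289 FPKM in auranofin 1 and 369 FPKM in auranofin 2. Hif1a, the regulated subunit of HIF-1, was between 27.0 and 29.0 FPKM in all 4 BMDM libraries and between 45.55 and 47.3 FPKM in all 4 AHSC libraries, and is named after its values were seen.

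Known HIF targets outside glycolysis were read the same way. In AHSC none of the 12 tested passed by adjusted p in limma, 3 had an unadjusted p under 0.05, where 17.8% of all genes tested did, and the median log2 difference was 0.029. Bnip3, a mitophagy receptor, was at 10.4 and 9.93 FPKM in the AHSC controls and 11.7 and 11.8 FPKM with auranofin, and Mxi1, a MAX-binding repressor, was at 6.87 and 6.79 against 7.95 and 7.56 FPKM. P4ha1, a collagen prolyl hydroxylase subunit, was at 56.3 and 57.3 FPKM in the AHSC controls and 55.6 and 53.9 FPKM with auranofin, while Ankrd37 was at 2.14 and 2.90 against 1.99 and 2.25 FPKM. In BMDM none of 11 passed in limma and 1 had an unadjusted p under 0.05, where 0.531% of all genes did. Of the 11, 10 had a log2 difference above 0, as did 66.1% of all genes tested. The median was 0.605, but 1.152 in auranofin 1 and 0.057 in auranofin 2. Adm, which encodes a vasodilator peptide, was at 1.33 and 1.53 FPKM in the BMDM controls, 3.07 FPKM in auranofin 1 and 2.20 FPKM in auranofin 2. Ddit4, an inhibitor of mTORC1 signalling, was at 0.877 and 0.879 FPKM in the controls, 3.17 FPKM in auranofin 1 and 1.45 FPKM in auranofin 2. Both genes were higher in both auranofin libraries, but Ddit4 passed the filter on low values only through them. Car9, a carbonic anhydrase, was at 1.83 and 1.68 FPKM in the BMDM controls and 1.56 and 1.60 FPKM with auranofin. On the log2(FPKM + 1) scale, 9 of the 11 were at least 1.5-fold above the control mean in auranofin 1, against 15.2% of all genes tested. On that scale none was in auranofin 2, against 0.379%. By plain FPKM, auranofin 2 was at 1.54 times the control mean for Adm and 1.65 times for Ddit4.

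**Figure D3:**
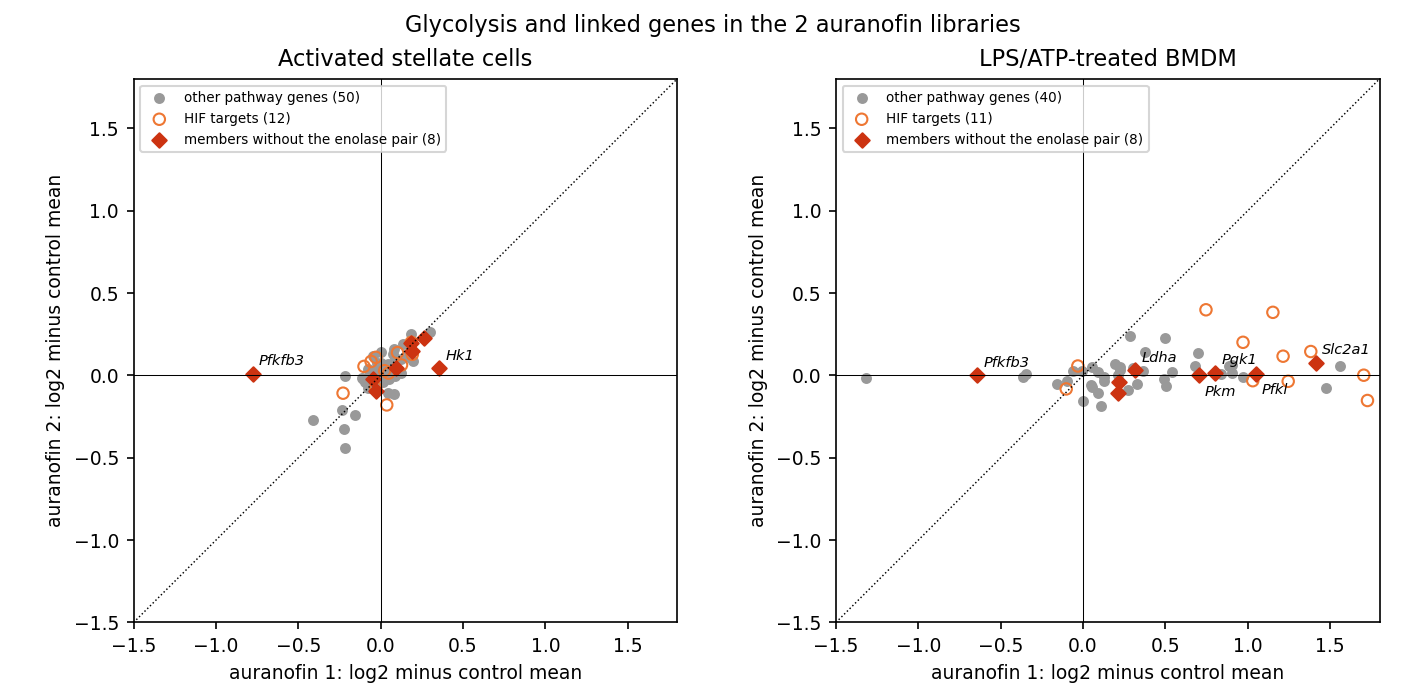
Difference of auranofin 1 (x axis) and auranofin 2 (y axis) from the control mean, as log2(FPKM + 1), for the 8 members without the enolase pair (red diamonds), the other pathway genes (grey) and HIF targets (open orange circles); the dotted line marks equal values. In AHSC most genes lie near the origin and close to the dotted line, while in BMDM the genes spread along the x axis and most stay near 0 on the y axis.

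Eno1, which encodes the alpha enolase of most tissues, was at 477 and 485 FPKM in AHSC controls and at 543 and 516 FPKM with auranofin. In BMDM it was at 161.6 and 170.7 FPKM in the controls, 256.6 FPKM in auranofin 1 and 167.8 FPKM in auranofin 2. It thus followed the layout of Pgk1 and Pkm in both tables, with log2 differences of 0.14 in AHSC and 0.32 in BMDM. Eno1b did not follow it. In AHSC it was at 0.0176 FPKM in control 1, 21.7 FPKM in control 2, 22.7 FPKM in auranofin 1 and 21.1 FPKM in auranofin 2. In BMDM it was at 0.0233 and 0.0191 FPKM in the controls and 9.74 and 7.41 FPKM with auranofin. The low values correspond to about 1 fragment, and the others to between 458 and 1490 fragments, by the estimated depth. No fold change is given against a value of about 1 fragment.

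Where Eno1b had a value, it was a nearly constant share of the enolase pair. Its share of the summed FPKM of Eno1 and Eno1b was 4.28%, 4.02% and 3.93% in the 3 AHSC libraries and 3.66% and 4.23% in the 2 BMDM libraries. In the other 3 libraries it was 0.00368%, 0.0144% and 0.0112%. The steps ran between the 2 AHSC controls and between the 2 groups in BMDM, so that in BMDM the row separated control from auranofin without overlap and in AHSC it separated replicates of one group. Adding the copy to Eno1 gave log2 differences of 0.165 in AHSC and 0.377 in BMDM, against 0.138 and 0.32 for Eno1 alone. All 10 members passed the filter (mean FPKM over 4 libraries of 1 or more) in both tables, but Eno1b passed in BMDM only through the auranofin libraries.

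The table lists the Eno1b transcript at 2 placements, one on the chromosome of Eno1b and one on chromosome 4, where Eno1 lies. The GENCODE transcripts of Eno1 and Eno1b were 99.48% identical over 1736 aligned bases. Of the stretches of 100 bases in the Eno1b transcript, 61.8% occurred unchanged in Eno1, and of those of 50 bases, 75.3%. Fragments from these stretches cannot be assigned to one gene by sequence, so the division between the rows is uncertain. Rows with a transcript at more than 1 locus were few, 14 in AHSC and 10 in BMDM with a mean of at least 1 FPKM, and Eno1b was the 1 such row in each table whose libraries differed by over 10-fold. Among all other rows, 24 of 12135 in AHSC and 46 of 9222 in BMDM differed as much.

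A search for near copies of the 70 members and pathway genes, at 95% identity or more over at least 500 bases, found 7 rows for 4 genes, the enolase rows included. Of these, 3 other Gapdh copies stayed at or under 1.21 FPKM. Pitrm1 was found through a stretch of 748 bases that matched Pfkp at 100.0%, and whether it is a copy of Pfkp was not examined. It was between 23.9 and 32.5 FPKM in all 8 libraries, without steps. The remaining row is described after its values were seen. Gm12070 is a near copy of Gapdh, the glyceraldehyde-3-phosphate dehydrogenase gene, with 99.9% identity over 1002 bases. In AHSC it was at 110.7, 115.7, 120.0 and 120.1 FPKM, a share of between 13.4% and 13.7% of the Gapdh pair. In BMDM it was at 0 FPKM in both controls, and at 75.3 FPKM in auranofin 1 and 56.5 FPKM in auranofin 2, shares of 13.1% and 14.0%. Gapdh itself was at 353.5 and 353.6 FPKM in the BMDM controls, 498 FPKM in auranofin 1 and 348 FPKM in auranofin 2. Both copies were therefore near 0 in the BMDM controls and at shares like those in AHSC in both BMDM auranofin libraries, whereas in AHSC control 1 only the Eno1b row was near 0. The part of read assignment in these steps was not tested.

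**Figure D4:**
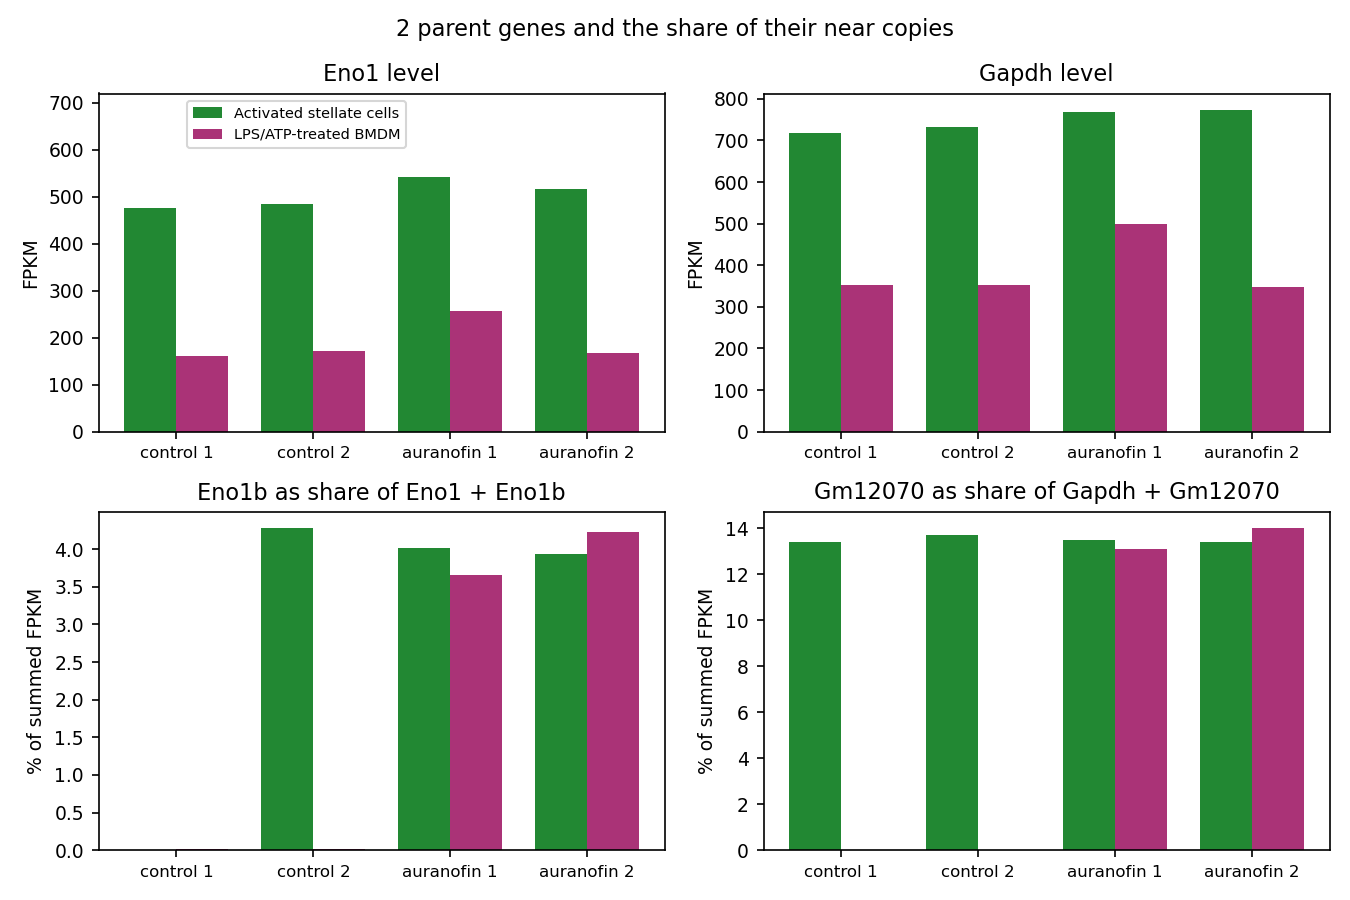
Levels of Eno1 and Gapdh in FPKM (upper bars) and the shares of their near copies in the summed FPKM of each pair (lower bars) in each library, AHSC in green and BMDM in purple, all axes from 0. Eno1b is at about 4% in 5 libraries and near 0 in AHSC control 1 and both BMDM controls, and Gm12070 is at about 13% to 14% in 6 libraries and 0 in both BMDM controls.

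The genes most like Eno1b over the 8 libraries were ranked by Pearson r of log2(FPKM + 1), centred in each table, among the 37 genes that averaged 1 FPKM or more and ranged over at least 1 (log2) in both tables. The points share libraries and tables, and no p is given. Gm12657 had r = 0.853, Sh2b3 0.817, Sumo3 0.639, Mir8114 0.57 and Prdx1 0.557. Gm12657 was at 0 FPKM in AHSC control 1 and BMDM control 2, as Eno1b nearly was, but at 2.49 FPKM in BMDM control 1. Mir8114 was at 51.0 FPKM in AHSC control 2 and at or under 0.0583 FPKM in the other AHSC libraries. In BMDM it was at 0.0642 and 0.0566 FPKM in the controls and 9.09 and 9.98 FPKM with auranofin. It passed the filter on low values only through its high libraries. Sh2b3, an adaptor protein gene, was at 8.81 and 10.4 FPKM in the AHSC controls and 22.7 and 23.0 FPKM with auranofin, and at 3.06 and 3.34 against 9.77 and 7.18 FPKM in BMDM. It separated the groups in both tables, which Eno1b did only in BMDM. The lowest r were those of Il1b at -0.761, G3bp2 at -0.646, Erdr1 at -0.635, Morf4l2 at -0.525 and Gpx1 at -0.366.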

How the data were processed

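RNA was sequenced from 4 AHSC and 4 BMDM libraries (Illumina stranded mRNA preparation). The authors deposited an FPKM value per gene and library in 2 tables on mm10 with RefSeq transcripts. The submitters' processing notes name CASAVA, FastQC 0.11.7, Trimmomatic 0.38, HISAT2 2.1.0 and StringTie 1.3.4d, without their settings. Deposited FPKM values already divide fragments among transcripts, so rows of near copies depend on that division. No counts are given. The depth was estimated from 1-fragment steps under 0.2 FPKM.

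Groups came from the labels. Each table was fitted alone in limma 3.58.1 (R 4.3.3; lmFit, eBayes with trend) on log2(FPKM + 1), over genes averaging 1 FPKM or more. This scale understates the change of low genes. Calls needed a Benjamini-Hochberg adjusted p under 0.05 over all genes tested. With 2 libraries a group, the smallest p of an exact permutation test is 0.333. The fit was tested on simulated data.

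The members and lists were chosen with earlier results of these data known. The named genes were the members, pathway genes and HIF targets with an adjusted p under 0.05 (at most 5 each way, by lowest p) or else the 2 higher and 2 lower with the lowest p, and the 5 highest and 5 lowest in correlation with Eno1b. Transcripts were aligned with blastn 2.17.0. Alternatives were a pseudocount of 0.1, no filter, a 5 FPKM minimum, libraries centred on their median, quantile normalization, no variance moderation, moderation with no trend, a replicate block, the enolase sum, and each library left out. Python 3.11.15 was used.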

Additional observations from a re-analysis of the deposited data

Results flagged for a closer look

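Ldha was the 1 member whose groups did not overlap in either table and pointed in opposite directions. The log2 difference was -0.061 in AHSC, with both auranofin libraries below both controls, and 0.175 in BMDM, with both above. Neither passed the test (limma, adjusted p = 0.473 and 0.721). The gaps were narrow, from 376.5 to 376.0 FPKM in AHSC and from 273.0 to 276.3 FPKM in BMDM. Of all genes tested, 50.1% in AHSC and 38.8% in BMDM had groups that did not overlap. Whether AHSC and BMDM differ was not tested, because dose, time and table differ.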

How the results depend on the processing

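Only 2 libraries per group and an estimated depth limit what can be told of low genes. In AHSC, the 1 called member and the 1 called gene among the other pathway genes became 0 and 0 without a filter, with eBayes without trend and with no moderation. Quantile normalization gave 2 other pathway genes. Leaving out either AHSC auranofin library ended the calls of Pkm and Aldoa. Without AHSC auranofin 2, Hk1 (log2 difference 0.36) and Pfkfb3 (-0.78) passed instead. There the lone auranofin library is assumed to vary like the controls. Leaving out each AHSC library in turn gave medians of the members between 0.0459 and 0.139. In BMDM the same step gave between 0 and 8 members, between 0 and 25 other pathway genes and medians between 0.0074 and 0.509, the largest counts without auranofin 2, where the lone auranofin library is assumed to vary like the controls. The cause of these changes was not tested.

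Some members changed direction. Without auranofin 1, Pfkfb3 had a log2 difference of 0.0096 in AHSC and 0.00017 in BMDM, and in BMDM Hk1 was at -0.038 and Hk2 at -0.11. Centring on the median gave -0.0024 for Hk1 and -0.040 for Hk2 in BMDM, and quantile normalization gave -0.00044 for Hk2. Without auranofin 2, the values were -0.78 for Pfkfb3 in AHSC, and 0.22 for Hk1, 0.21 for Hk2 and -0.64 for Pfkfb3 in BMDM. None of these members was called with all libraries. With the replicate number as a block, AHSC again had 1 called member, with an adjusted p of 0.0321 for Pkm in limma, and BMDM had 0, so the block changed no call. Deviations of same-numbered AHSC libraries had a correlation of 0.109 and those of BMDM -0.0551, and nothing in the labels ties the numbers.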
